A study of Mus musculus with 7 samples.

Results

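The 10 genes described here belong to the rapid transcriptional response to stimulation and stress and were followed in genetically marked cardiac fibroblasts of young mice. They were chosen by name, as 10 of the 54735 gene symbols in the count table: Fos, Fosb, Jun, Junb, Atf3, Egr1, Ier2 and Dusp1, which are immediate early genes, and Hspa1a and Hspa1b, which encode inducible heat shock protein 70. All 10 passed the filter on low counts that left 17636 genes for testing. RNA was sequenced from reporter-positive cells of the mouse heart in 7 libraries of 3 groups. Postn P7 held 2 libraries of the genotype PostnMCM;R26eGFP at 7 days of age. Tcf21 P30 held 3 libraries of Tcf21MCM;R26eGFP at 30 days, and Tcf21 P7 held 2 libraries of Tcf21MCM;R26eGFP at 7 days. Every library was made from pooled males and females. In every group the mice carried MerCreMer (MCM), a recombinase that works only in the presence of tamoxifen, together with a recombinase-dependent green fluorescent reporter at the Rosa26 locus, so the marked cells are those in which the Postn or the Tcf21 gene drove the recombinase while tamoxifen was given. Untreated or reporter-free cells were not analysed here. The time and dose of tamoxifen and the way the hearts were dissociated are not given in the sources used here. Flow sorting sent the cells straight into a lysis reagent, in which they were frozen.

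Immediate early genes are transcribed within minutes of a stimulus by transcription factors that are already present in the cell, without new protein synthesis, and their mRNAs are short-lived. Serum response factor with its ternary complex partners, and CREB, act on their promoters downstream of MAP kinases. Heat shock genes are driven by heat shock factor 1 when unfolded proteins accumulate. Both classes are known to be induced in many tissues when cells are dissociated enzymatically before sorting, and the question here was how far their levels differed between the marked populations and ages.

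Promoter sequence is shown for 5 of the genes, the pair of heat shock genes and the immediate early genes in whose windows a TATA box, a cyclic AMP response element or a heat shock element was matched. Each line gives the 250 bases before the RefSeq start (GRCm38.p6), read 5′ to 3′ on the strand of the gene, with matched motifs in capitals. The windows are chr12:85473640-85473889 (plus strand) for Fos, chr4:95052223-95052472 (minus strand) for Jun, chr17:26508473-26508722 (minus strand) for Dusp1, chr17:34972157-34972406 (minus strand) for Hspa1a and chr17:34959239-34959488 (minus strand) for Hspa1b.
Fos: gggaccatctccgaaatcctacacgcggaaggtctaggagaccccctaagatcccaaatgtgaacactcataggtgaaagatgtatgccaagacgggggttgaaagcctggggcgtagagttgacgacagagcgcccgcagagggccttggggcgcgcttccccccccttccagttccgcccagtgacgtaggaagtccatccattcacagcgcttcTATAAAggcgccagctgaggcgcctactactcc
Jun: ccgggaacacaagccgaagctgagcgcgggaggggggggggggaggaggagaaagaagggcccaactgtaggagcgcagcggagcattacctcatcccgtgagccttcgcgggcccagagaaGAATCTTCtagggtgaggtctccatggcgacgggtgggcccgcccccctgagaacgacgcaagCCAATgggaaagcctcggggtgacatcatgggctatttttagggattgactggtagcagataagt
Dusp1: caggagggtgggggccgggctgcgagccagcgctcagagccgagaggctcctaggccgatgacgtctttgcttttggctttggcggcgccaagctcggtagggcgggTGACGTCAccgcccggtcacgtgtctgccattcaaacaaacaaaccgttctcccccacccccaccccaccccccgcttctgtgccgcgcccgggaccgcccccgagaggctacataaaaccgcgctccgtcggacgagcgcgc
Hspa1a: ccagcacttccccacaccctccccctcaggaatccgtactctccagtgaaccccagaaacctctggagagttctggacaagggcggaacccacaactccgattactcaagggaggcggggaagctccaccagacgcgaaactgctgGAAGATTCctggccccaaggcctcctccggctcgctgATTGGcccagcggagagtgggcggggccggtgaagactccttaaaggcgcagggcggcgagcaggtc
Hspa1b: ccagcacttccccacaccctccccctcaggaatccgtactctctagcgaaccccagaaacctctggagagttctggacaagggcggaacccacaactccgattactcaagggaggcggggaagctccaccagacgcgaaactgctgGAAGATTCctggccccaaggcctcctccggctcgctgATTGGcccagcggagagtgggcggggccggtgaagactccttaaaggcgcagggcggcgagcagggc

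RefSeq windows were matched for 8 of the 10 genes, all but Egr1 and Ier2. The motifs were searched on both strands as the CArG box of serum response factor, the cyclic AMP response element TGACGTCA, the AP-1 site TGANTCA, the heat shock element of 2 units, GAANNTTC or TTCNNGAA, its form of 3 units (GAANNTTC followed by NNGAA), the TATA box TATAAA and the CCAAT box CCAAT. A match to 3 units is also a match to both forms of 2 units. The letters GAANNTTC stood in the windows of Hspa1a, Hspa1b and Jun, against 6.69% of 32851 windows over all genes. TGACGTCA stood in the window of Dusp1, against 1.55% of all windows, and TATAAA in that of Fos, against 12.4%. CCAAT stood in 4 of the 8 windows (Jun, Junb, Hspa1a and Hspa1b), against 33.8% of all windows. No window of the 8 held a match to the CArG box, TGANTCA, the heat shock element of 3 units or TTCNNGAA, which stood in 1.47%, 6.75%, 0.466% and 7.17% of all windows. The windows of Hspa1a and Hspa1b differed at 3 of 250 bases. These matches describe letters and are not evidence of binding. Sequence further upstream than 250 bases, and the promoters of Egr1 and Ier2, were not searched, so a motif without a match may lie there.

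**Figure D1:**
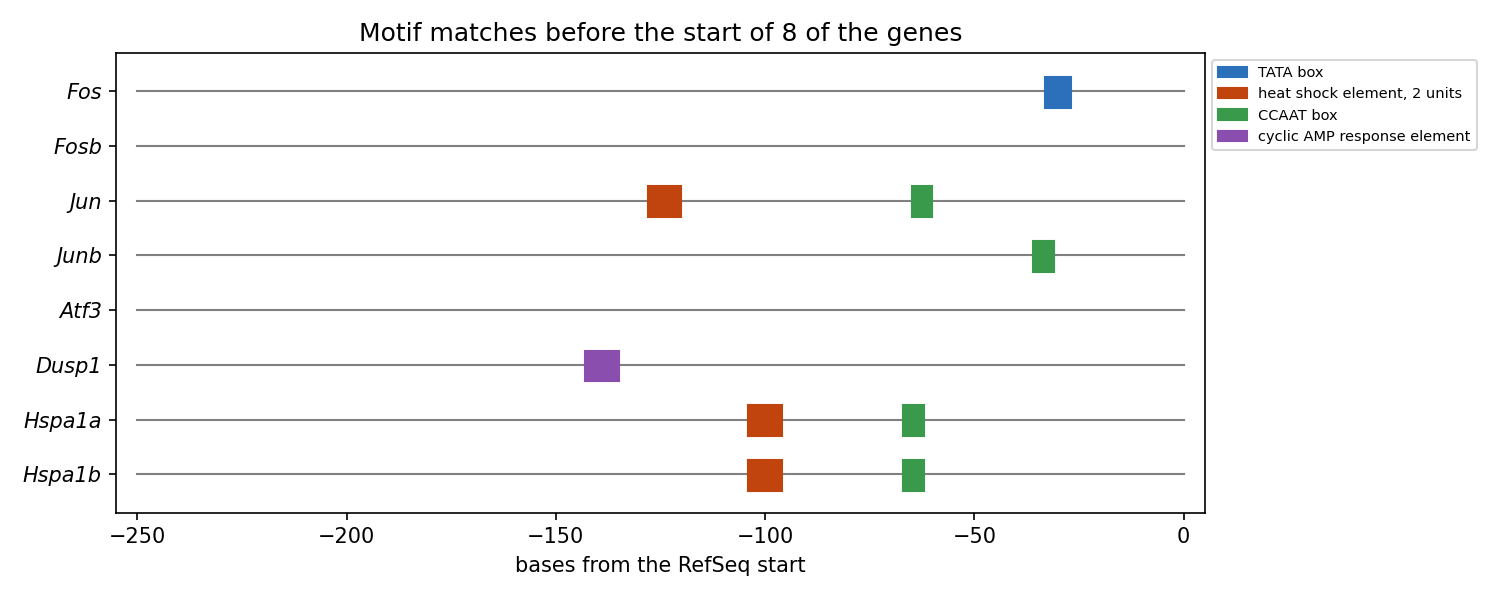
Motif matches in the 250 bases before the RefSeq start of 8 of the genes, one line per gene, with the distance from the start in bases on the horizontal axis. Coloured boxes mark the matches of each motif on either strand. Hspa1a and Hspa1b have the same arrangement, a heat shock element of 2 units and a CCAAT box, and the lines of Fosb and Atf3 hold no box.

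Total counts per library ran between 15207835 and 18519528, and in each group the replicates varied beyond counting noise. The excess was smallest between the Tcf21 P7 libraries, with a chi-square per degree of freedom of 3.43. It was 18.4 in Postn P7 and 9.9 to 38.1 in Tcf21 P30. The 8 fibroblast markers were detected in all 7 libraries and summed to between 24872 and 45523 normalised CPM (counts divided by the scaled library total). Replicate 1 of Postn P7 and of Tcf21 P30 were richer in endothelial transcripts, with 10 markers summing to 1683 and 3720.4 CPM, against 1007 to 1233 CPM in the other 5. Without those 2 libraries together the difference of the immediate early genes between Postn P7 and Tcf21 P7 was larger, as given below. Without Postn P7 replicate 1 alone it was nearly the same. The log2 change was 1.642 against 1.649 for Fos and 2.231 against 2.238 for Atf3. Both fits leave Postn P7 replicate 2 as the only library of its group, and the part of endothelial content was not tested. Libraries sorted in bulk cannot tell fewer cells of a type from less RNA per cell.

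The 10 genes together took 0.493% and 0.953% of all counts in the Postn P7 libraries. They took 0.932%, 1.16% and 1.02% in the Tcf21 P30 libraries, and 0.430% and 0.441% in the Tcf21 P7 libraries. Counting error is small at this depth: the exact binomial 95% interval ran between 0.490% and 0.497% for Postn P7 replicate 1 and between 0.438% and 0.444% for Tcf21 P7 replicate 2. These intervals cover counting error only. The 2 Postn P7 libraries stood apart from each other, replicate 1 close to the Tcf21 P7 libraries and replicate 2 close to the lowest Tcf21 P30 library.

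In the comparison of Tcf21 P30 with Tcf21 P7, 8 of the 10 genes rose, Fos, Fosb, Jun, Junb, Ier2, Dusp1, Hspa1a and Hspa1b, while 16.7% of all genes tested were called higher and 31.8% in either direction. For Egr1 and Atf3 the test was not passed, although all 10 genes were higher in each of the 3 Tcf21 P30 libraries than in either Tcf21 P7 library. Over all genes tested, the libraries of these groups did not overlap for 61.8% in one direction or the other, so the lack of overlap alone says little with 2 and 3 libraries. The median change of the 10 genes was 1.56 on the log2 scale, against 0.03 over all genes tested. A gene was called where the adjusted p of edgeR's quasi-likelihood test was under 0.05. Without replicate 1 or without replicate 2 of Tcf21 P7 the count was 2 of 10, Hspa1a and Hspa1b, and 6 immediate early genes no longer passed, with adjusted p between 0.053 and 0.116. With either Postn P7 library left out of the shared fit it was 10 of 10.

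Set against Tcf21 P7, Postn P7 showed a rise in 2 of the 10 genes, Fosb and Hspa1a, while 6.52% of all genes tested were called higher, 5.49% lower and 12% in either direction. With library totals alone as the scaling, 78.7% of the calls were in the higher direction, and with upper-quartile factors 64.7%, against 54.2% in the fit reported. Library totals alone also moved the median change of all genes to 0.12 on the log2 scale. The median change of the 10 genes was 0.59, against 0.00 over all genes tested. The libraries of the 2 groups did not overlap for 7 of the 10 genes and for 64.0% of all genes tested. The call of Fosb and of Hspa1a was lost without either Tcf21 P7 library. The count was 8 of 10 without Postn P7 replicate 1, and 9 of 10 without that library and Tcf21 P30 replicate 1 together.

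In the comparison of Postn P7 with Tcf21 P30, 4 of the 10 genes fell, Ier2, Dusp1, Hspa1a and Hspa1b, while 12.5% of all genes tested were called lower, 11.7% higher and 24.2% in either direction. The libraries of these groups did not overlap for 6 of the 10 genes and for 50.6% of all genes tested. The median change of the 10 genes was -0.67, against -0.01 over all genes. Hspa1a and Hspa1b passed the test in each of 19 alternative analyses, and Ier2 and Dusp1 in 12 of 19. Without Postn P7 replicate 2 all 10 genes were called lower, and without Postn P7 replicate 1 Atf3 was called higher. These groups differ in both lineage and age, and the 3 comparisons share libraries, so they are not independent of each other.

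**Figure D2:**
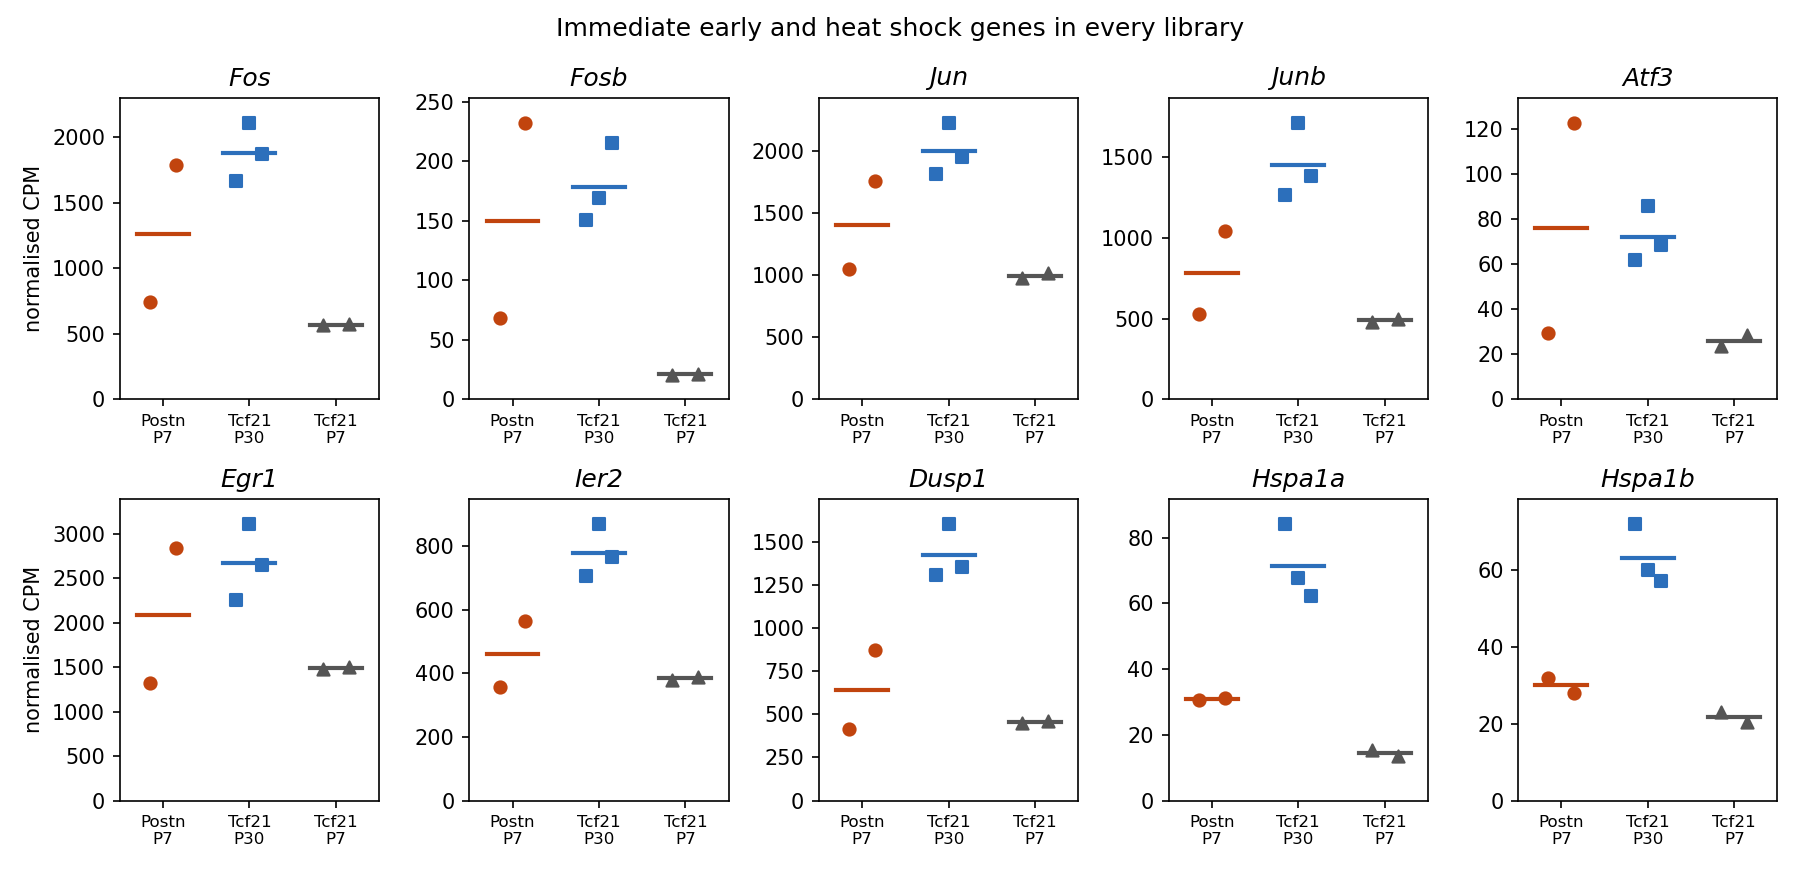
Normalised CPM of the 10 genes in each library, one panel per gene with its own linear axis from 0. Points are libraries of Postn P7 (n = 2), Tcf21 P30 (n = 3) and Tcf21 P7 (n = 2), and bars are group means. The 2 Postn P7 points lie far apart for the immediate early genes and close together for Hspa1a and Hspa1b.

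Fos and Fosb encode AP-1 subunits that bind DNA as dimers with Jun proteins. Fos (chr12:85473890-85477273, plus strand, protein coding) had 740.1 and 1785 CPM in the Postn P7 libraries. It had 1667, 2106 and 1867 CPM in the Tcf21 P30 libraries, against 564 and 576 CPM in the Tcf21 P7 libraries. Each Tcf21 P30 library was at least 2.90-fold above the higher Tcf21 P7 library, and the mean was 1879.9 ± 219.7 CPM (SD, n = 3) in Tcf21 P30 and 569.6 ± 8.35 CPM (SD, n = 2) in Tcf21 P7. The log2 fold change was 1.72 ± 0.37 (SE; edgeR adjusted p = 0.016). For Postn P7 against Tcf21 P7 the difference was 1.15 ± 0.38 and not called (edgeR adjusted p = 0.10). Postn P7 replicate 2 lay within the range of the Tcf21 P30 libraries, and the difference of -0.57 ± 0.35 between these groups was not called (edgeR adjusted p = 0.30).

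Fosb (chr7:19302696-19310051, minus strand, protein coding) had the largest fold differences from Tcf21 P7 of the 10 genes. It had 68.3 and 232 CPM in Postn P7 libraries, 151, 169 and 215 CPM in the Tcf21 P30 libraries, and 20.6 and 21.1 CPM in the Tcf21 P7 libraries. All 5 libraries of Postn P7 and Tcf21 P30 lay above both Tcf21 P7 libraries. The log2 fold change was 3.09 ± 0.59 for Tcf21 P30 against Tcf21 P7 (edgeR adjusted p = 0.016). It was 2.84 ± 0.61 for Postn P7 against Tcf21 P7 (edgeR adjusted p = 0.046), a call that rested close to the threshold and was lost in 8 of 19 alternative analyses. Its mean was 150.2 ± 116 CPM in Postn P7 (SD, n = 2), 178 ± 33.1 CPM in Tcf21 P30 (SD, n = 3) and 20.9 ± 0.346 CPM in Tcf21 P7 (SD, n = 2). Between Postn P7 and Tcf21 P30 the difference was -0.25 ± 0.51 and not called (edgeR adjusted p = 0.78). Fosb made up 8.45% and 11.5% of the summed counts of Fosb and Fos in Postn P7, 8.29%, 7.43% and 10.3% in Tcf21 P30, and 3.53% and 3.54% in Tcf21 P7. The share was higher in each of the 5 libraries of the other groups than in either Tcf21 P7 library, a difference that was not tested between groups.

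Jun and Junb encode the partners of Fos proteins, of which Junb is the weaker activator of many AP-1 targets. Jun (chr4:95049034-95052222, minus strand, protein coding) had 1047 and 1762 CPM in the Postn P7 libraries. It had 1817, 2225 and 1953 CPM in the Tcf21 P30 libraries, against 977 and 1015 CPM in the Tcf21 P7 libraries. The rise in Tcf21 P30 was 1.00 ± 0.21 on the log2 scale (edgeR adjusted p = 0.0098). Neither the difference of 0.50 ± 0.23 between Postn P7 and Tcf21 P7 (edgeR adjusted p = 0.19) nor that of -0.51 ± 0.21 between Postn P7 and Tcf21 P30 (edgeR adjusted p = 0.12) was called. Junos, an antisense RNA that overlaps Jun, had between 18.5% and 20.5% of the count of Jun in every library. No source used here gives the strand setting of the counting, so reads of the pair cannot be told apart.

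Junb (chr8:84974484-84978718, minus strand, protein coding) had 526 and 1043 CPM in Postn P7 libraries, 1269.8, 1713 and 1383.5 CPM in Tcf21 P30, and 479 and 499.9 CPM in Tcf21 P7. Every Tcf21 P30 library exceeded both libraries of each other group. The rise over Tcf21 P7 was 1.57 ± 0.30 (edgeR adjusted p = 0.0084), and the difference of Postn P7 from Tcf21 P30, -0.89 ± 0.29, was not called (edgeR adjusted p = 0.067). Nor was that of 0.68 ± 0.31 between Postn P7 and Tcf21 P7 (edgeR adjusted p = 0.19). Its 3′ end overlaps Prdx2, a peroxiredoxin gene on the other strand, whose group means of 174 CPM in Postn P7 libraries, 134 CPM in Tcf21 P30 and 231 CPM in Tcf21 P7 ran in another order.

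Atf3 encodes a stress-induced bZIP factor that can repress or activate transcription with AP-1 partners. Atf3 (chr1:191170296-191218039, minus strand, protein coding) had 29.6 and 123 CPM in the Postn P7 libraries, a 4.14-fold gap that was the widest of the 10 genes. It had 61.8, 86.0 and 68.7 CPM in the Tcf21 P30 libraries, against 23.7 and 28.3 CPM in the Tcf21 P7 libraries. Replicate 2 of Postn P7 was the highest of all libraries and replicate 1 lay just above the Tcf21 P7 libraries. Neither the difference of 1.55 ± 0.66 for Postn P7 (edgeR adjusted p = 0.19) nor that of 1.47 ± 0.62 for Tcf21 P30 (edgeR adjusted p = 0.13) over Tcf21 P7 was called. Postn P7 and Tcf21 P30 differed by 0.07 ± 0.58 (edgeR adjusted p = 0.95). With the Tcf21 P30 and Tcf21 P7 libraries alone in the fit, Atf3 was called higher in Tcf21 P30 (edgeR adjusted p = 0.0011), and over 19 alternative analyses of that comparison the adjusted p reached 0.415.

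Egr1 encodes a zinc finger transcription factor and Ier2 a small nuclear protein, both induced by growth factors. Egr1 (chromosome 18) had 1321 and 2843.5 CPM in Postn P7 libraries, 2251, 3104 and 2651 CPM in Tcf21 P30, and 1479 and 1499.8 CPM in Tcf21 P7. Postn P7 replicate 1 lay below both Tcf21 P7 libraries and replicate 2 above them. The change of 0.84 ± 0.32 in Tcf21 P30 against Tcf21 P7 was not called (edgeR adjusted p = 0.087), and it was with DESeq2 (adjusted p = 0.0049). Postn P7 differed by 0.48 ± 0.34 from Tcf21 P7 (edgeR adjusted p = 0.39) and by -0.36 ± 0.31 from Tcf21 P30 (edgeR adjusted p = 0.47), neither of which was called.

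Ier2 (chr8:84661331-84662852, minus strand, protein coding) had 355 and 564 CPM in Postn P7 libraries, 705 to 868 CPM in Tcf21 P30, and 379.7 and 387 CPM in Tcf21 P7. The 3 Tcf21 P30 libraries exceeded all others. The rise over Tcf21 P7 was 1.02 ± 0.19 (edgeR adjusted p = 0.0061), and Postn P7 was lower than Tcf21 P30 by a log2 difference of -0.76 ± 0.19 (edgeR adjusted p = 0.023). Postn P7 and Tcf21 P7 differed by 0.26 ± 0.20, which was not called (edgeR adjusted p = 0.43).

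Dusp1 encodes a dual-specificity phosphatase that inactivates MAP kinases and so limits the signals that induce the other immediate early genes. Dusp1 (chr17:26505590-26562128, minus strand, protein coding) had 412 and 871 CPM in the Postn P7 libraries. It had 1308, 1599.99 and 1356 CPM in the Tcf21 P30 libraries, against 452 and 463 CPM in the Tcf21 P7 libraries. Every Tcf21 P30 library was above every other library. The rise over Tcf21 P7 was 1.64 ± 0.31 (edgeR adjusted p = 0.009), and Postn P7 was lower than Tcf21 P30 by a log2 difference of -1.15 ± 0.30 (edgeR adjusted p = 0.036). The difference of Postn P7 from Tcf21 P7, 0.49 ± 0.32, was not called (edgeR adjusted p = 0.36). It overlaps Ergic1, on the other strand, whose count was 12.7% to 63.0% of that of Dusp1 across libraries.

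Hspa1a and Hspa1b encode nearly identical heat shock protein 70 chaperones from neighbouring genes, and their transcripts share 58.8% and 62.3% of their 50-base windows, so reads in the shared parts cannot be assigned to 1 gene. Hspa1a (chr17:34969190-34972156, minus strand, protein coding) had 30.7 and 31.2 CPM in the Postn P7 libraries. It had 84.0, 67.7 and 62.2 CPM in the Tcf21 P30 libraries, against 15.5 and 13.4 CPM in the Tcf21 P7 libraries. The 3 groups did not overlap, with means of 30.9 ± 0.369 CPM in Postn P7 (SD, n = 2), 71.3 ± 11.3 CPM in Tcf21 P30 (SD, n = 3) and 14.5 ± 1.42 CPM in Tcf21 P7 (SD, n = 2). The rise over Tcf21 P7 was 2.30 ± 0.16 in Tcf21 P30 (edgeR adjusted p = 6.1e-05) and 1.10 ± 0.16 in Postn P7 (edgeR adjusted p = 0.0089). Postn P7 was lower than Tcf21 P30 by a log2 difference of -1.20 ± 0.15 (edgeR adjusted p = 0.00078).

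Hspa1b (chr17:34956436-34959238, minus strand, protein coding) had 31.9 and 28.1 CPM in Postn P7 libraries, 71.9, 60.1 and 57.2 CPM in Tcf21 P30, and 23.0 and 20.4 CPM in Tcf21 P7. Its groups did not overlap either. The rise was 1.54 ± 0.14 in Tcf21 P30 (edgeR adjusted p = 0.00019), and in Postn P7 the difference of 0.47 ± 0.15 was not called (edgeR adjusted p = 0.072). With the counts of the pair summed, the difference was 0.75 for Postn P7 against Tcf21 P7 (edgeR adjusted p = 0.018), 1.89 for Tcf21 P30 against Tcf21 P7 (edgeR adjusted p = 8.07e-05) and -1.14 for Postn P7 against Tcf21 P30 (edgeR adjusted p = 0.000607). Hspa1a took 49.0% and 52.6% of the pair in Postn P7, 52.1% to 53.9% in Tcf21 P30, and 40.2% and 39.8% in Tcf21 P7. Gm20481, a gene on the other strand over Hspa1a, had between 36.1% and 50.2% of the count of Hspa1a.

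**Figure D3:**
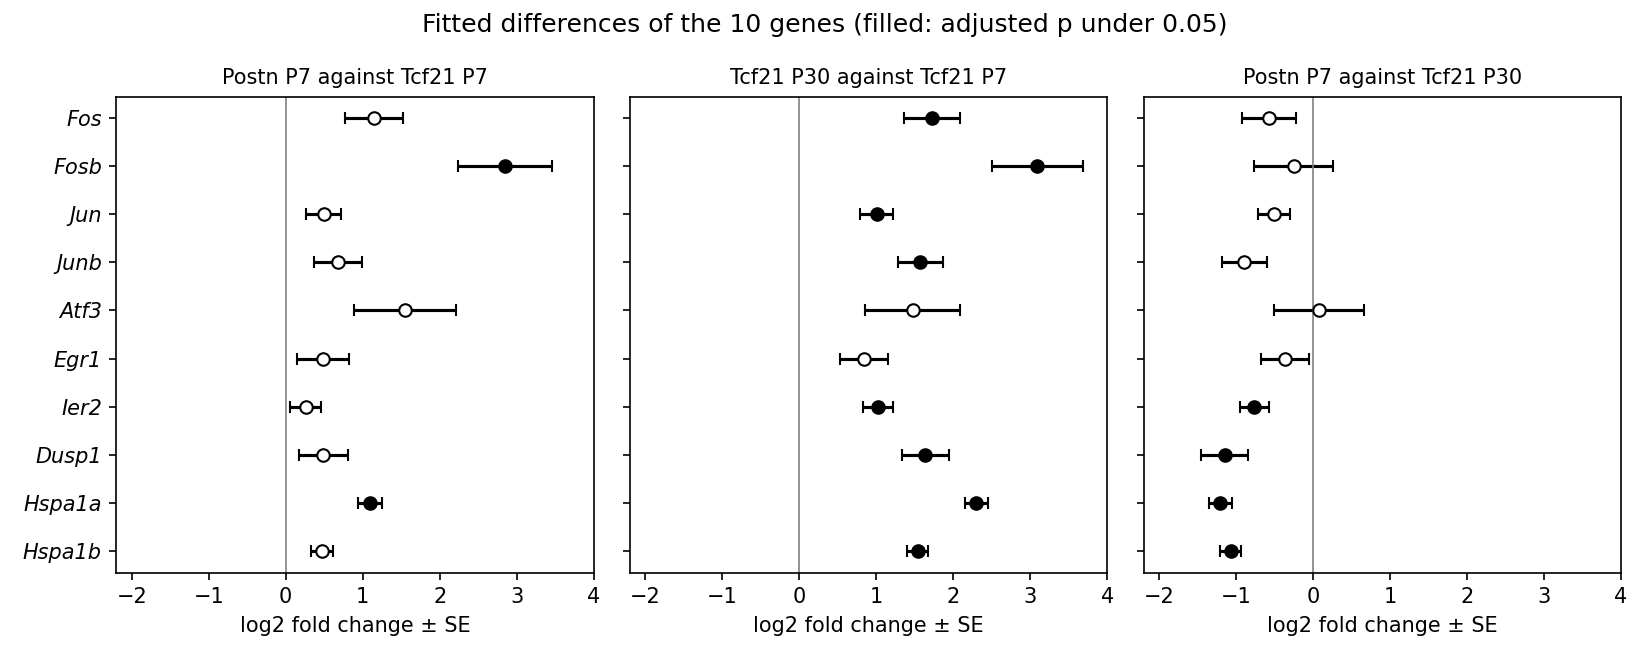
Fitted log2 fold changes of the 10 genes with their standard errors, in 3 comparisons side by side; filled points are genes called at an adjusted p under 0.05. In the panel of Tcf21 P30 against Tcf21 P7 every point lies above 0 and 8 are filled, and in that of Postn P7 against Tcf21 P7 Fosb and Hspa1a are filled.

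Within Postn P7 the spread set the 8 immediate early genes apart from Hspa1a and Hspa1b. Replicate 2 exceeded replicate 1 by 1.59-fold (Ier2) to 4.14-fold (Atf3) for the 8 immediate early genes. For Hspa1a and Hspa1b the ratio was 1.02 and 0.882. The split did not hold for each class as a whole. Among other inducible heat shock genes, Dnajb1 had 80.1 and 128 CPM and Bag3 69.7 and 103 CPM in the Postn P7 libraries. Hspb1 had 26.3 and 23.1 CPM there. Ier5, another immediate early gene, had 72.6 and 73.2 CPM. Replicate 1 was below all 3 Tcf21 P30 libraries for all 10 genes, whereas replicate 2 exceeded them for Fosb and Atf3, lay within them for Fos and Egr1, and was below them for the other 6. The Tcf21 P30 libraries split the 10 genes in the same way. Replicate 1 was the lowest of them for the 8 immediate early genes and the highest for Hspa1a and Hspa1b. Of the other heat shock genes named here, it was the lowest for Dnajb1 and Bag3 and the highest for Hspb1. The mitochondrial share of counts was 0.316% and 0.190% in Postn P7, 0.335%, 0.164% and 0.290% in Tcf21 P30, and 0.293% and 0.304% in Tcf21 P7. The library with the lowest mitochondrial share had the highest immediate early levels in Postn P7 and, for 7 of the 8 immediate early genes, in Tcf21 P30. In Tcf21 P7 the order was the other way, replicate 1 having the lower mitochondrial share and the lower level of all 8. The part of this share in the result was not tested.

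**Figure D4:**
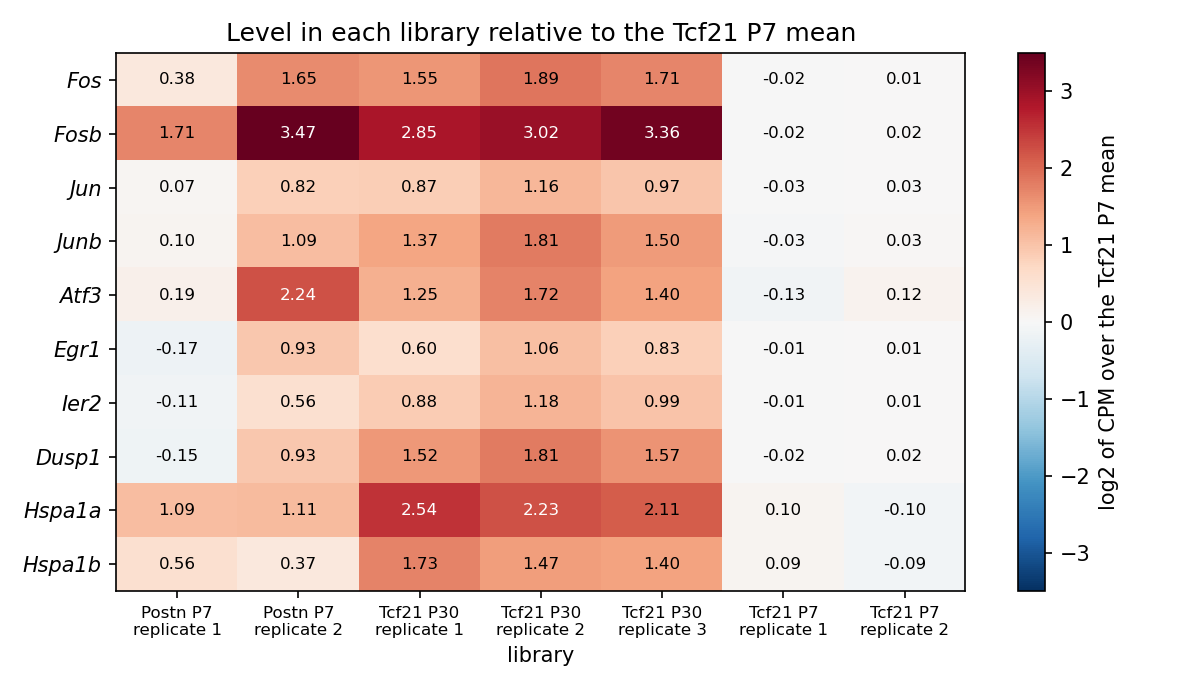
Level of each gene in each library as the log2 of its CPM over the mean of the Tcf21 P7 libraries, red above and blue below that mean. Postn P7 replicate 1 is close to the Tcf21 P7 libraries for Jun, Junb, Atf3, Egr1, Ier2 and Dusp1, while replicate 2 lies within the Tcf21 P30 libraries for Fos and Egr1, above them for Fosb and Atf3 and below them for the other genes.

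Per length of transcript (CPM per kilobase of exon), Fos was the most abundant of the 10 genes in Postn P7, at 537 CPM per kilobase, and in Tcf21 P30, at 799 CPM per kilobase, against 242 CPM per kilobase and rank 4 in Tcf21 P7. The place of Fos in Postn P7 is that of a mean of unlike libraries, with 315 and 759 CPM per kilobase of Fos against 328 and 553 CPM per kilobase of Jun, so that Jun exceeded Fos in replicate 1. Egr1 led in Tcf21 P7 at 332 CPM per kilobase, followed by Jun at 312. Hspa1a and Hspa1b were between 4.87 and 24.0 CPM per kilobase in every group, and Fosb lay between 3.34 and 28.5. The order of the group means was Tcf21 P30, Postn P7, Tcf21 P7 for 9 of the genes and Postn P7, Tcf21 P30, Tcf21 P7 for Atf3. It is an order of means, and most of its steps that involve Postn P7 were not called. Between Postn P7 and Tcf21 P30, 4 of the 10 genes were called, beside 24.2% of all genes tested. Between Postn P7 and Tcf21 P7, 2 of the 10 were called, beside 12% of all genes tested. For Atf3, Postn P7 and Tcf21 P30 did not differ beyond their spread.

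Other genes of the same responses were taken from 8 lists. In Tcf21 P30 against Tcf21 P7, 12 of 20 other immediate early signalling and RNA-decay genes rose and 1, Plk3, fell, with a median change of 0.94; of all genes tested 16.7% were called higher and 15% lower. Arc, a cytoskeletal immediate early gene, averaged 16.6 ± 2.29 CPM in Tcf21 P30 and 1.12 ± 0.70 CPM in Tcf21 P7, and rose by 3.88 ± 0.45 on the log2 scale (edgeR adjusted p = 0.0007). Gadd45g, a stress sensor, rose by 3.14 ± 0.53 (edgeR adjusted p = 0.0092), Zfp36, which destabilises AU-rich mRNAs, by 2.15 ± 0.36 (edgeR adjusted p = 0.0069), and Nfkbiz, an NF-kappaB cofactor, by 2.05 ± 0.56 (edgeR adjusted p = 0.045). Zfp36 had 540.2 to 593.8 CPM in the Tcf21 P30 libraries and 124 and 130.0 CPM in the Tcf21 P7 libraries. The count of higher genes was 3 without either Tcf21 P7 library, and 8 without Tcf21 P30 replicate 2 or replicate 3. Between Postn P7 and Tcf21 P7, Nfkbia, the gene of an NF-kappaB inhibitor, rose in Postn P7 by 0.84 ± 0.21 (edgeR adjusted p = 0.045) and Ier5l fell by 0.45 ± 0.11 (edgeR adjusted p = 0.035), with a list median of 0.51. Relative to Tcf21 P30, in Postn P7 1 member, Plk3, rose and 5 fell, with a median change of -0.37.

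Of the 14 other immediate early transcription factors 12 were tested, and 3 rose in Tcf21 P30 against Tcf21 P7, with a list median of 0.31, where 16.7% of all genes tested were called higher. Klf4, a Krüppel-like factor, rose by 1.04 ± 0.13 (edgeR adjusted p = 0.0011), Myc by 1.00 ± 0.29 (edgeR adjusted p = 0.044) and Klf10 by 0.63 ± 0.09 (edgeR adjusted p = 0.0016). Nr4a1, a nuclear receptor, had 143 and 398 CPM in Postn P7 libraries, 262, 361 and 316 CPM in Tcf21 P30, and 249 and 251 CPM in Tcf21 P7, and was not called; its replicate 2 in Postn P7 was the highest library. Among AP-1 partners, Maff, Atf2 and Fosl2 rose, by 0.91 ± 0.14, 0.31 ± 0.08 and 0.31 ± 0.10 (edgeR adjusted p = 0.0023, 0.025 and 0.045), 3 of 12, and the count was 1 without either Tcf21 P7 library and without Tcf21 P30 replicate 2 or replicate 3. Postn P7 differed from Tcf21 P7 in that Mafk fell by 0.44 ± 0.10 (edgeR adjusted p = 0.031) and Srf, the serum response factor itself, by 0.59 ± 0.14 (edgeR adjusted p = 0.035), as the only called members of their lists.

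Dusp1 belongs to the negative feedback on MAP kinases. Of 15 other MAP kinase phosphatases and ERK feedback inhibitors 4 fell in Tcf21 P30 against Tcf21 P7, with a list median of -0.39, while 15% of all genes tested were called lower. The count was 1 without Tcf21 P7 replicate 2 and 2 without Tcf21 P30 replicate 3, and all these calls were lost without Tcf21 P7 replicate 1. Dusp8 fell by 0.83 ± 0.16 (edgeR adjusted p = 0.0073), Spry4 by 0.41 ± 0.11 (edgeR adjusted p = 0.029), Dusp7 by 0.39 ± 0.11 (edgeR adjusted p = 0.034) and Spred1 by 0.36 ± 0.09 (edgeR adjusted p = 0.018). Spry1, the most abundant, had -0.12 ± 0.16 in Postn P7 against Tcf21 P7 (edgeR adjusted p = 0.65). Of 15 upstream regulators Mapk8 alone was called in those comparisons, rising by 1.29 ± 0.20 in Tcf21 P30 (edgeR adjusted p = 0.0025) and by 1.35 ± 0.22 in Postn P7 (edgeR adjusted p = 0.012).

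Inducible heat shock genes beyond the HSP70 pair were mixed, with 9 of 20 higher and 4 lower in Tcf21 P30 against Tcf21 P7, a median change of 0.25, beside 16.7% and 15% of all genes tested. Hspb8, a small heat shock protein, averaged 58.3 ± 11.7 CPM in Tcf21 P30 and 10.3 ± 0.38 CPM in Tcf21 P7, and rose by 2.50 ± 0.19 (edgeR adjusted p = 9.1e-05). Hspb1 rose by 1.81 ± 0.15 (edgeR adjusted p = 0.00013) and Hspa4l by 0.71 ± 0.20 (edgeR adjusted p = 0.027), while Hmox1, heme oxygenase 1, fell by 0.84 ± 0.21 (edgeR adjusted p = 0.018). The 2 Postn P7 libraries had 26.3 and 23.1 CPM of Hspb1 and 7.56 and 8.01 CPM of Hspb8. Against Tcf21 P30 they were lower by a log2 difference of -2.00 ± 0.15 and -2.90 ± 0.19 (edgeR adjusted p = 8e-05 and 4.6e-05). Dnajb4 and Chordc1 rose in Postn P7 against Tcf21 P7, by 0.58 ± 0.13 and 0.40 ± 0.11 (edgeR adjusted p = 0.033 and 0.046). The number higher in Tcf21 P30 was 2 and 3 without replicate 1 and replicate 2 of Tcf21 P7, and 3 and 4 without replicate 2 and replicate 3 of Tcf21 P30. Of 13 constitutive chaperones and heat shock factors 2 rose in Tcf21 P30, a number near the 16.7% of all genes called higher: Hsf1 by 0.76 ± 0.13 (edgeR adjusted p = 0.0034) and Hspa4 by 0.26 ± 0.08 (edgeR adjusted p = 0.048). Hsf1, the factor that drives Hspa1a and Hspa1b, also rose in Postn P7 against Tcf21 P7, by 0.56 ± 0.14 (edgeR adjusted p = 0.038), and Trap1, a mitochondrial chaperone, fell by 0.38 ± 0.09 (edgeR adjusted p = 0.039). Each call of Postn P7 against Tcf21 P7 in these lists was lost without either Tcf21 P7 library. Without Postn P7 replicate 2 the calls left in these lists were 2 higher genes of the signalling list.

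The counts of Postn P7 against Tcf21 P30 in these lists stand beside 11.7% of all genes called higher and 12.5% called lower. Between Postn P7 and Tcf21 P30, 3 of 12 AP-1 partners fell, Maff by 1.07 ± 0.14 (edgeR adjusted p = 0.0012), Mafk by 0.63 ± 0.09 (edgeR adjusted p = 0.002) and Fosl2 by 0.37 ± 0.10 (edgeR adjusted p = 0.03). Klf4 and Klf10 fell, by 1.07 ± 0.13 and 0.62 ± 0.09 (edgeR adjusted p = 0.00093 and 0.0017), while Nr4a2, an orphan nuclear receptor, rose by 1.01 ± 0.27 (edgeR adjusted p = 0.027). Arc and Sgk1, a serum-induced kinase, fell by 2.51 ± 0.40 and 1.52 ± 0.28 (edgeR adjusted p = 0.0034 and 0.0095). Among the feedback inhibitors 3 of 15 rose, Dusp4, Dusp5 and Spred1, by 1.47 ± 0.44, 0.98 ± 0.28 and 0.29 ± 0.09 (edgeR adjusted p = 0.044, 0.039 and 0.047), calls that were all lost without Postn P7 replicate 1, Tcf21 P30 replicate 2 or either Tcf21 P7 library. Of the inducible heat shock genes 2 of 20 rose and 4 fell, and the signalling list had 13 genes lower without Postn P7 replicate 2 and 2 without Postn P7 replicate 1, against 5 with all libraries.

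**Figure D5:**
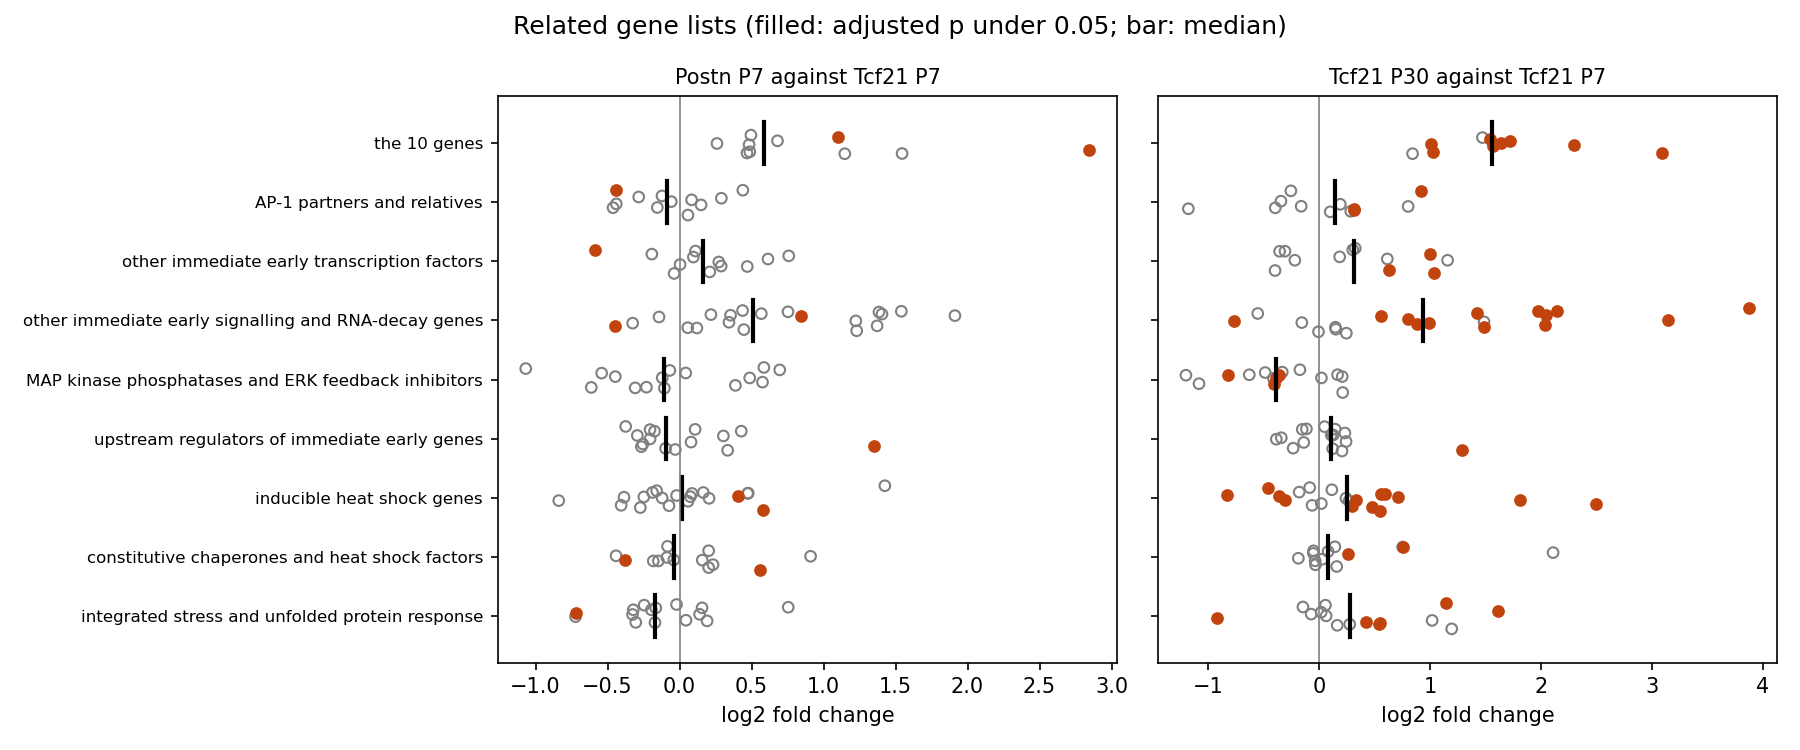
Log2 fold changes of the 10 genes and of 8 related lists for Postn P7 against Tcf21 P7 and for Tcf21 P30 against Tcf21 P7; each circle is a gene, filled where it was called, and black bars are list medians. In Tcf21 P30 the 10 genes and the signalling and RNA-decay genes lie furthest to the right, with medians of 1.56 and 0.94, and the MAP kinase phosphatases have a median of -0.39.

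The sums of nuclear-retained RNAs and of macrophage markers set the Tcf21 P7 libraries apart from the others. The sum of fibroblast markers was also higher in both Tcf21 P7 libraries than in any other library. Sums of pericyte and of epicardial and mesothelial markers did not set them apart. Nuclear-retained RNAs (Malat1, Neat1, Kcnq1ot1, Firre and Meg3) summed to 1312 and 1542 CPM in Postn P7 libraries, 1699.5, 1755 and 1621 CPM in Tcf21 P30, and 389 and 380.4 CPM in Tcf21 P7. Against Tcf21 P7, all 5 were called higher in Postn P7 and 4 of 5 in Tcf21 P30, and the sums ran in the order of the group means of 9 of the 10 genes. The 10 macrophage markers summed to 329.99 and 462 CPM in Postn P7 libraries, 625, 426 and 436 CPM in Tcf21 P30, and 1159 and 1166 CPM in Tcf21 P7. Of these, 9 were called lower in Postn P7 and 8 in Tcf21 P30. Of all genes tested, 6.52% were called higher and 5.49% lower in Postn P7 against Tcf21 P7. In Tcf21 P30 against Tcf21 P7 these shares were 16.7% and 15%. The 8 pericyte markers summed to 2247 and 1646 CPM in Postn P7 libraries and 1129.99 and 1082 CPM in Tcf21 P7. In Tcf21 P30 they summed to 1569 CPM in replicate 1 and 848 and 899.7 CPM in the others of that group. Against Tcf21 P7, 1 of the 8, Pdgfrb, was called higher in Postn P7 and likewise in Tcf21 P30. The 8 fibroblast markers summed to 33182 and 40534 CPM in Postn P7 libraries, 24872 to 30569.8 CPM in Tcf21 P30, and 45523 and 45363 CPM in Tcf21 P7. Collagens made up most of that sum, Col3a1 alone having 19793 and 19827 CPM in the Tcf21 P7 libraries. In Tcf21 P30 against Tcf21 P7 the collagens Col1a1, Col1a2 and Col3a1 were called lower, and Ddr2 and Pdgfra higher. None of the 8 was called in Postn P7 against Tcf21 P7. The sum of the 5 epicardial and mesothelial markers was highest in Postn P7 replicate 1, at 55.5 CPM, and fell to 6.41 in replicate 2. For Tcf21 P30 it was 17.0, 1.97 and 1.92 CPM in the order of the replicates, and for Tcf21 P7 21.8 and 17.4. Wt1 and Krt19 were detected in every library. Upk3b, Msln and Upk1b were at 0 in Postn P7 replicate 2 and in Tcf21 P30 replicate 3. Msln and Upk1b were also at 0 in Tcf21 P30 replicate 2. The part of these markers in the differences of the 10 genes was not tested.

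The genes most like each of the 10 were sought among 9987 genes with a mean of at least 10 CPM. Predicted gene models (Gm and Rik symbols) were left out, so Gm20481, which lies over Hspa1a, was not compared. Likeness was the root mean square difference of log2 profiles over the 7 libraries after centring. Fos was nearest to Socs3 (0.14), Ppp1r15a (0.14) and Gem (0.16), and Atf3 to Ppp1r15a (0.17), Nfkbiz (0.27) and Gadd45b (0.27). Fosb was nearest to Ifih1, at 0.43. Jun was nearest to Junos (0.04), Id2 (0.08) and Cyr61 (0.10), and Egr1 to Cyr61 (0.09), Armh4 (0.12) and Jun (0.13). Junb and Dusp1 were each other's nearest gene (0.13). Ier2 was nearest to Bhlhe40 (0.06). Hspa1a was nearest to Osmr (0.14), Il15ra (0.18) and Trim21 (0.21), and Hspa1b to Asap2, Tlr3 and Tmem62 (0.12, 0.12 and 0.13), so none of the other 8 genes was among the nearest of either. These distances describe the same 7 libraries and share their depth and scaling.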

How the data were processed

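The authors deposited raw counts per gene symbol for 7 libraries, whole numbers with no normalization, each replicate in its own column. Per the submitters' processing notes the aligner was STAR and the build GRCm38; the STAR version, counter, annotation release and strand setting are not given in the sources used here. Annotation was taken from GENCODE M21 and promoters from RefSeq (GRCm38.p6). Testing used edgeR 4.0.16 in R 4.3.3, with filterByExpr, TMM scaling, and the robust quasi-likelihood F-test with a mean per group over all 7 libraries, Benjamini-Hochberg adjustment over 17636 genes and a threshold of 0.05. The standard error restates the test, as the absolute log2 change over the square root of F. The procedure was also run on simulated counts of independent libraries, which cannot show how it behaves if libraries are technical copies. Depth was 15207835 to 18519528 counts. The labels do not say that libraries came from separate animals; the p-values therefore reflect the variation among these 7 libraries, which may be technical. The members and lists were chosen with earlier results of these data known. Named besides the 10 genes were up to 4 called genes per list with the largest changes, or the most expressed where none was called, and the 3 nearest profiles. Zfp36 and Nr4a1 levels per library were chosen after their values were seen. Dnajb1, Bag3 and Ier5 were named outside that rule, as genes that did not follow the split between the Postn P7 libraries. Alternatives used other scalings, no filter, DESeq2 1.42.0, limma 3.58.1 (voom), fits without the robust option or with 2 groups only, a replicate block, summed libraries or genes, and each library left out. One marker result is not reported here.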

Additional observations from a re-analysis of the deposited data

How the results depend on the processing

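Counts below are genes called by edgeR, against 2 higher (Postn P7 against Tcf21 P7), 8 higher (Tcf21 P30 against Tcf21 P7) and 4 lower (Postn P7 against Tcf21 P30) of the 10 genes as reported; 2118, 5604 and 4276 of all genes were called. In Postn P7 against Tcf21 P7 the count was 1 with upper-quartile factors and with only those 2 groups fitted, 8 with no filter on low counts (3442 of all genes), 9 without Postn P7 replicate 1 and Tcf21 P30 replicate 1 together (3750), and 0 after summing Tcf21 P7 to 1 sample (123; 3 of the 10 had an unadjusted p under 0.05). Leaving out 1 library gave 0 to 8, and 111 to 3250 of all genes. DESeq2 and limma-voom each called 2. In Tcf21 P30 against Tcf21 P7 that summing gave 2 (2463 of all genes), and leaving out 1 library gave 2 to 10 (2418 to 6063). DESeq2 called 9 and limma-voom 8. In Postn P7 against Tcf21 P30 the count of lower genes was 8 with no filter, 2 with only those 2 groups and 2 with Tcf21 P7 as 1 sample; 1 gene was higher without the endothelial-rich pair of libraries. Leaving out 1 library gave 2 to 10 lower, 0 to 1 higher, and 2810 to 5072 of all genes. DESeq2 called 6 lower and limma-voom 5.

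Changes of sign were confined among the 10 genes to the following. Without Postn P7 replicate 2 the log2 change in Postn P7 against Tcf21 P7 was -0.18 for Egr1, -0.12 for Ier2 and -0.16 for Dusp1, against 0.93, 0.55 and 0.92 without Postn P7 replicate 1. In Postn P7 against Tcf21 P30, Atf3 was -0.28 with limma-voom, -0.18 with the replicate block, -1.29 without Postn P7 replicate 2 (up to 0.76 without Postn P7 replicate 1) and -0.03 without Tcf21 P30 replicate 1. Fosb was 0.38 without Postn P7 replicate 1, 0.27 without the endothelial-rich pair and -1.39 without Postn P7 replicate 2. Egr1 was 0.090 without Postn P7 replicate 1 and -1.02 without Postn P7 replicate 2. The cause was not tested. Same-numbered libraries deviated together with r of 0.04 to 0.31 across genes, not over 0.1 in every pair. The highest values, 0.29 and 0.31, were those of Postn P7 with Tcf21 P30. With 2 or 3 libraries per group these values cannot exclude pairing or a shared batch. The fit reported used no pairing. With a replicate block the counts were 1, 8 and 5, and 1556, 4553 and 3348 of all genes. Where 1 library is left in a group it is assumed to vary like the others. Replicates varied beyond counting noise in each group, least in Tcf21 P7, so the number of libraries limits the precision.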

Other observations

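The integrated stress and unfolded protein response, which shares Atf3 as a target, was followed in a list of 15 genes. In Tcf21 P30 against Tcf21 P7, 5 rose and 1 fell, with a list median of 0.27 on the log2 scale; of all genes tested 16.7% were called higher and 15% lower. Trib3, a pseudokinase induced by this response, averaged 14.2 ± 3.84 CPM in Tcf21 P30 and 4.64 ± 0.03 CPM in Tcf21 P7 (SD, n = 3 and 2), a rise of 1.61 ± 0.27 (edgeR adjusted p = 0.0035). Nupr1 rose by 1.14 ± 0.22 (edgeR adjusted p = 0.0075) and Hsp90b1, a chaperone of the endoplasmic reticulum, by 0.55 ± 0.09 (edgeR adjusted p = 0.003), and Sesn2 fell by 0.92 ± 0.19 (edgeR adjusted p = 0.0082). Without replicate 1 or replicate 2 of Tcf21 P7 the number higher was 1 or 2. In Postn P7 against Tcf21 P7 the called gene was Sdf2l1, which fell by 0.72 ± 0.15 (edgeR adjusted p = 0.026). In Postn P7 against Tcf21 P30, 4 genes fell, among them Trib3 by 1.81 ± 0.28 (edgeR adjusted p = 0.0024) and Sdf2l1 by 1.26 ± 0.14 (edgeR adjusted p = 0.00057).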
